A study of Mus musculus with 8 samples.

Results

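The 54 genes described here encode protein factors that assemble, activate, drive and take apart the spliceosome without being core proteins of its small nuclear ribonucleoproteins (snRNPs). They comprise factors that recognise the branch site and both splice sites, RNA helicases, the Prp19 complex, second-step factors and the exon junction complex. They were taken by gene name from a table of 46635 loci, all 54 were present, and the rule used names and no measured value. RNA was sequenced from the small intestine of wild-type mice after EDTA had stripped off its epithelium, which leaves the mesenchyme with its muscle, connective tissue, nerves and vessels. There were 4 libraries from fetuses at E17.5, late in gestation (the age label reads E17 and the protocol E17.5), and 4 from pups of P14, before weaning. No library carried a mutation, a transgene or a drug treatment. The study asked whether the spliceosome takes part in gut lengthening, and 1 value per gene shows the level of a factor, not the splicing of its targets. Nothing in the labels says that the 4 libraries of an age came from separate animals, so p-values measure the spread between these libraries, which may be technical.

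Splicing removes introns in a pair of transesterification steps that a large, stepwise assembled machine carries out. U1 marks the 5' splice site, SF1 and U2AF mark the branch site and the 3' splice site, and U2 and then the U4/U6.U5 tri-snRNP join. RNA helicases and the Prp19 complex remodel this assembly into its active form, DEAH-box ATPases drive it through catalysis and release, and the exon junction complex stays on the spliced mRNA, where it bears on export, translation and decay. These factors act on nearly every intron-containing transcript, in all cell types of the gut wall.

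Values are FPKM, which correct read numbers for the length of the gene and the size of the library and so can be set side by side between genes. The libraries held 16660998 to 19496632 assigned reads. Markers of smooth muscle and of fibroblasts summed to 5016 to 5498 FPKM (10 smooth muscle markers) and 3190 to 3552 FPKM (10 fibroblast markers) at E17.5. In P14 replicates 2, 3 and 4 the smooth muscle sums were higher, at 11261, 8021.5 and 10066. The fibroblast sums there were 3199, 3149 and 3216. The 8 endothelial markers summed to 608 to 633 FPKM at E17.5 and to 460, 392 and 472 in those P14 libraries. The smooth muscle and endothelial sums thus differed between the ages also without P14 replicate 1. Of the smooth muscle markers Tagln was the lowest in every library, at 0.22 to 0.53 FPKM at E17.5 and 0.40 to 1.19 at P14. P14 replicate 1 stood apart from the other libraries. Its 18 pan-epithelial markers summed to 7383 FPKM, against 181, 1014 and 402 in P14 replicates 2, 3 and 4 and 46.3 to 69.9 at E17.5, none of the 18 was at 0 at P14, and its smooth muscle and fibroblast sums were the lowest of all, at 2931 and 1127. Its effective library size, which the deposited scaling used, was 0.78 times its assigned reads, against 1.02 to 1.06 times elsewhere, which raises its FPKM relative to the other libraries. Comparisons are therefore given with all 8 libraries and again without it. The 15 cell division markers summed to 535 to 597 FPKM at E17.5, to 347 to 369 in P14 replicates 2 to 4 and to 239.6 in replicate 1, and the part of these shifts in the results that follow was not tested.

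All 54 genes passed the filter for testing, at least 1 FPKM in 4 or more of the 8 libraries, which 14044 loci met. The ages were compared as log2(FPKM + 1), and a gene was called where the adjusted p of limma was under 0.05. Of the 54 factors, 5 fell, 1 rose and 48 did not pass, that is 9.26% lower and 1.85% higher, beside 15% lower and 9.72% higher among all tested genes (24.7% in either direction). Dhx15, Prpf4b, Cdc5l, U2surp and Prpf19 fell and Syf2 rose. The median log2 fold change of the 54 was −0.129, with 40 values below 0, against 0.00219 over all tested genes. Without P14 replicate 1, 16 fell and 2 rose, 29.6% and 3.7% of the 54, beside 26.9% lower and 22.6% higher among all tested genes (49.5% in either direction). The median was then −0.175 against −0.025. With the pan-epithelial level as a covariate in that fit, 1 fell and none rose. Nearly all of the calls made without P14 replicate 1, including those given by role further on, thus end under that setting. In those libraries all 16 tested pan-epithelial markers were higher in every P14 library than in every fetal one. The covariate therefore rises with age, and the lost calls cannot separate age from epithelial level. The share of all tested genes called under that setting was not counted. All 6 genes called with 8 libraries were called again with 7, and 12 were added. In both fits, the share of these factors that rose lay below the share of all tested genes that rose. The counts moved with single libraries. Without E17.5 replicate 1, 2, 3 or 4, in that order, 4, 3, 1 and 2 factors were down, and without P14 replicate 2, 3 or 4 the number was 3, 2 and 2. Of the 14044 tested genes, 1477, 1288, 1118 and 1278 were down without these fetal libraries. Without these P14 libraries 1812, 1418 and 1499 were down, against 2108 with all 8. Up calls were 1 without E17.5 replicate 1 or P14 replicate 2 and none without any of E17.5 replicates 2 to 4 or P14 replicates 3 and 4. Of all tested genes, 617 to 1175 were up in these fits, against 1365 with all 8 libraries. On a TPM scale, which sets every library to the same sum, the median of all tested genes shifted to −0.181 and that of the factors to −0.324. There 12 factors were down and none up, beside 2678 down and 899 up of the 14044 tested genes. Testing every locus above 0 FPKM, which adjusts over more loci, left Dhx15 and Prpf4b down and none up. Of the 31574 loci then tested, 1571 were down and 1007 up.

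Summed levels were lower at P14. Without Cwc22, which is described apart, the FPKM of 53 factors summed to 1441 to 1449 in the 4 fetal libraries and to 1411, 1321, 1285 and 1318 in P14 replicates 1 to 4. The ages did not overlap in that sum, and on this deposited scale P14 replicate 1 was the P14 library nearest to the fetal ones. Its place depends on the scaling, which raises its FPKM. With reads scaled by assigned reads, it was the lowest P14 library in 40 of the 54 factors and the highest in 8. The 8 libraries separated by age without overlap in 9 factors that were lower at P14 (16.7%) and 1 that was higher (1.85%), beside 20.4% and 15.6% of all tested genes. Without P14 replicate 1, 19 factors were lower in every P14 library (35.2%) and 1 was higher (1.85%), beside 29.7% and 24.8%. In bulk RNA, fewer cells of a type and less RNA per cell cannot be told apart.

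**Figure D1:**
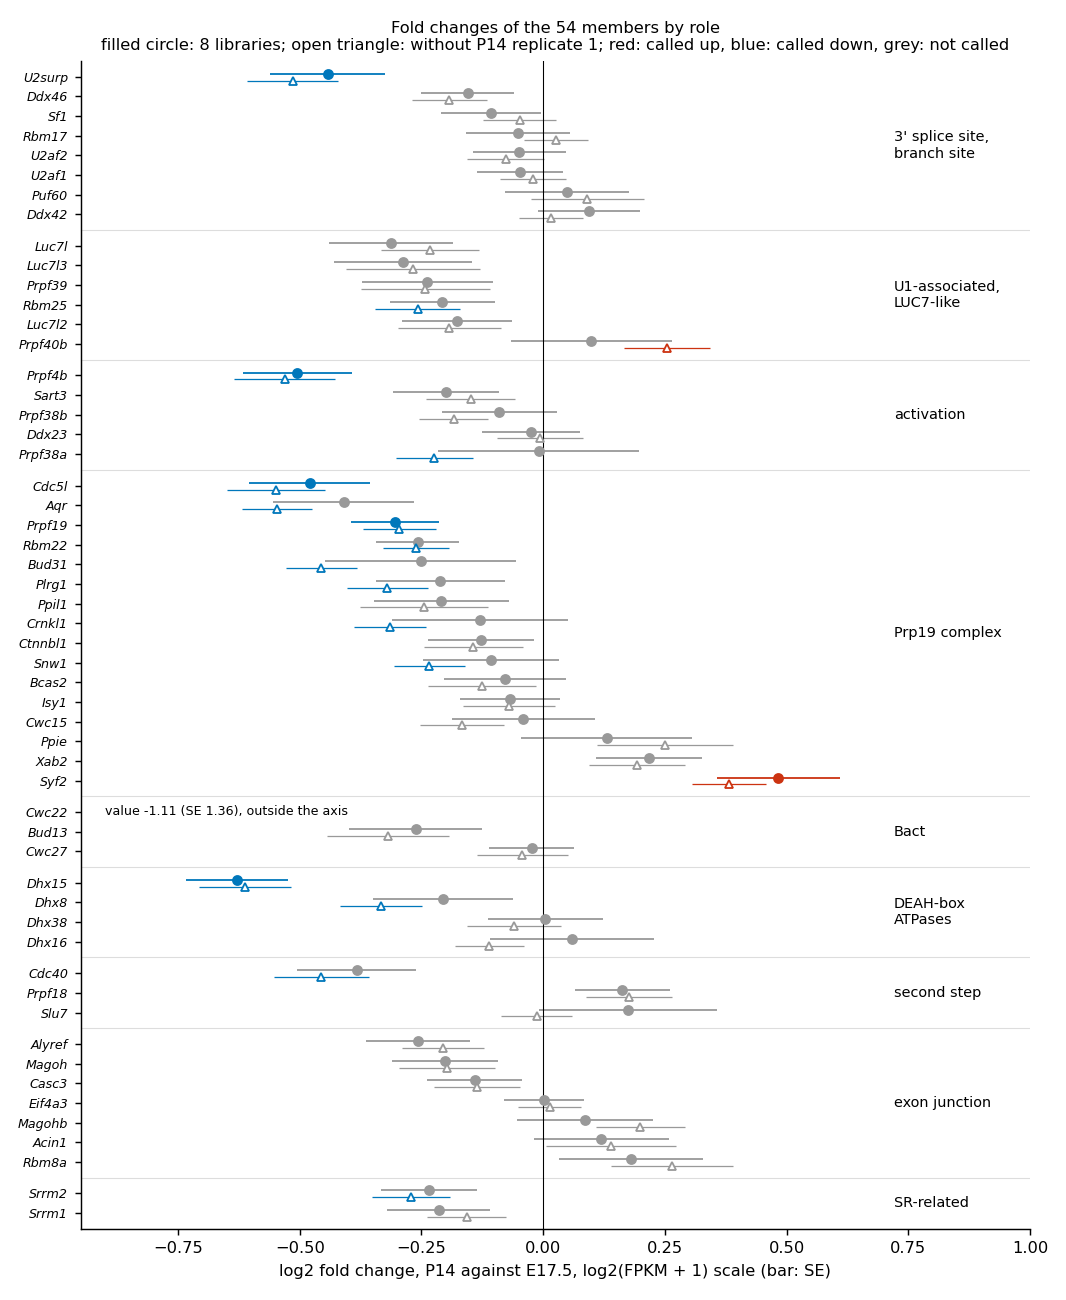
Log2 fold change of each of the 54 factors, P14 minus E17.5 in log2(FPKM + 1) (x axis), grouped by role, with 8 libraries (filled circles) and without P14 replicate 1 (open triangles); bars are standard errors and colours mark called genes. With 8 libraries 40 of the 54 values lie below 0, the 6 genes called with 8 libraries keep their side in both fits, and the value of Cwc22 is given as text because it lies outside the axis.

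The DEAH-box ATPases pull on RNA to move the spliceosome from one stage to the next. Dhx15 (chr5:52307545-52347888, GRCm39, minus strand) encodes the helicase that takes apart spliceosomes after release of the intron lariat, and also acts in ribosome production. Its FPKM was 55.1, 53.96, 64.1 and 67.3 in fetal replicates 1 to 4 and 37.0, 38.2, 38.1 and 40.1 in P14 replicates 1 to 4. Every fetal library lay above every P14 library, P14 replicate 1 did not stand apart, and the P14 spread was narrow. The mean fell from 60.1 ± 6.59 (SD, n = 4) to 38.4 ± 1.30 (SD, n = 4), a log2 fold change of −0.63 (SE 0.105, adjusted p = 0.0053), and the call was kept under all 19 alternative settings. The other 3 enzymes of this kind did not pass with 8 libraries. Dhx8 encodes the ATPase that releases the spliced mRNA and had a log2 fold change of −0.21, then fell by 0.33 without P14 replicate 1 (adjusted p = 0.0115), its P14 values being 12.5 in replicate 1 and 8.18 to 8.72 in the others. Dhx16, needed just before the first step, was at 12.8 to 14.8 FPKM in the fetal libraries and at 20.9 in P14 replicate 1 against 12.5 to 12.9 in the other P14 libraries, with values of 0.06 and −0.11 in the 2 fits. Dhx38, which prepares the second step, differed by 0.00 and −0.06. Dhx15 was also the most abundant of these 4 enzymes, at a mean of 60.1 FPKM in the fetal libraries beside 14.01 for Dhx38, 13.8 for Dhx16 and 11.01 for Dhx8.

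**Figure D2:**
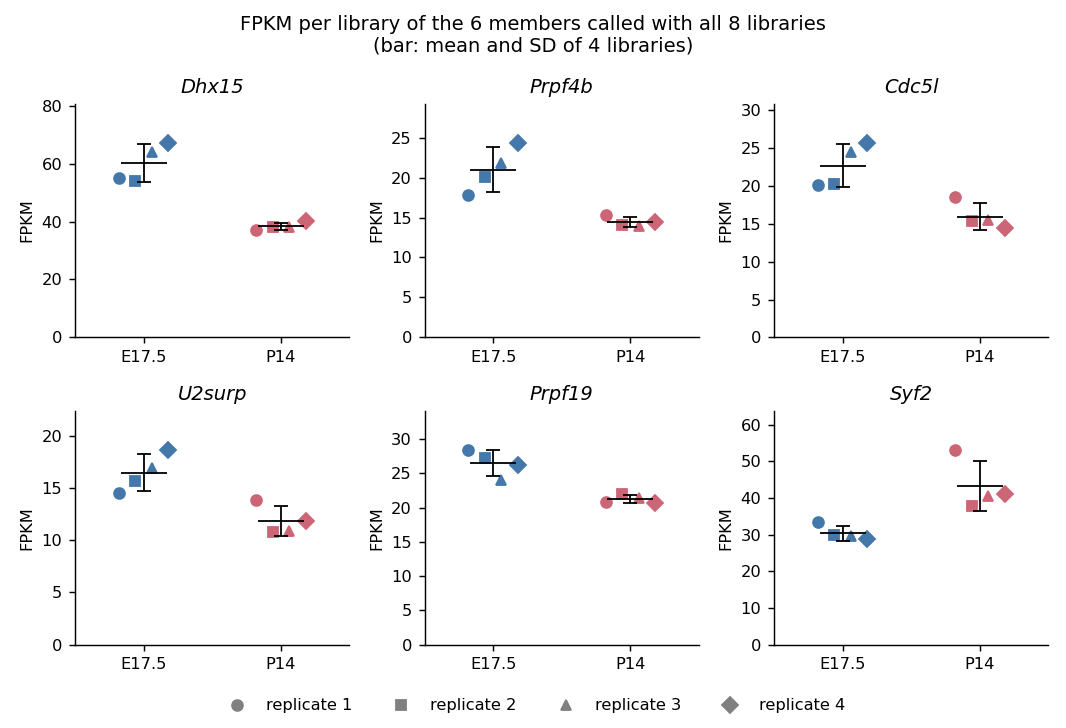
FPKM of the 6 factors called with all 8 libraries (y axes, from 0) at E17.5 and P14 (x axes), 1 marker per library with its shape giving the replicate number, and bars giving mean and SD of 4 libraries. In Dhx15, Prpf4b, Cdc5l, U2surp and Prpf19 every P14 library is below every E17.5 library, and in Syf2 every P14 library is above. On this deposited scale P14 replicate 1 is the P14 library nearest to the fetal ones in Prpf4b, Cdc5l and U2surp. Its ratios to the mean of P14 replicates 2 to 4 in these are 1.08, 1.23 and 1.24, but 0.811, 0.922 and 0.931 by assigned reads.

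The activation factors prepare the assembled B complex for catalysis. Prpf4b (chr13:35058803-35090047, plus strand) encodes a kinase that phosphorylates tri-snRNP proteins. It was at 17.8, 20.04, 21.8 and 24.4 FPKM in fetal replicates 1 to 4 and at 15.3, 14.04, 13.9 and 14.5 at P14. The ages did not overlap, and the fetal values were spread over a wider range than the P14 values. The mean fell from 21.01 ± 2.80 to 14.4 ± 0.615 (SD, n = 4 each), a log2 fold change of −0.50 (SE 0.112, adjusted p = 0.0158). That call was kept under 17 of the 19 alternative settings. It was lost without E17.5 replicate 3 (adjusted p = 0.0572) and with a replicate block (adjusted p = 0.0644). Ddx23, the helicase that frees U1 from the 5' splice site and the most abundant of the 5, was at 31.8, 31.8, 28.3 and 26.6 FPKM in the fetal libraries and 27.9, 30.9, 30.2 and 27.2 at P14. Its ages overlapped over nearly their whole range, and its log2 fold change was −0.03 (SE 0.101). Prpf38a and Prpf38b encode related components of the B complex. Prpf38a was at 25.0 to 28.6 FPKM in the fetal libraries and at 21.1 to 24.3 in P14 replicates 2 to 4, but at 42.4 in P14 replicate 1, the highest of all 8. It had a log2 fold change of −0.01 with 8 libraries and fell by 0.22 without that library (adjusted p = 0.0445). Prpf38b was at 29.2 FPKM in P14 replicate 1 and 21.4 to 22.7 in the others, and did not pass in either fit (−0.09 and −0.18). Sart3, which helps U4 and U6 to pair again after splicing, did not pass either, with −0.20 and −0.15.

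The Prp19 complex, with its Cdc5l core and the intron-binding partners grouped with it here, holds the catalytic RNA in place once the spliceosome is active. It had 2 of its 16 members down (12.5%) and 1 up (6.25%) with 8 libraries, beside 15% and 9.72% of all tested genes, and 8 down (50%) and 1 up (6.25%) without P14 replicate 1, beside 26.9% and 22.6%. Prpf19 (chr19:10872595-10886923, plus strand), the ubiquitin ligase that gives the complex its name, was at 28.4, 27.2, 24.1 and 26.3 FPKM in the fetal libraries and at 20.8, 22.0, 21.4 and 20.7 at P14. The ages did not overlap and the P14 values lay within a narrow range, P14 replicate 1 among them. The mean fell from 26.5 ± 1.84 to 21.2 ± 0.607 (SD, n = 4 each), with a log2 fold change of −0.30 (SE 0.0897, adjusted p = 0.0411). That call was kept under 7 of the 19 alternative settings. Leaving out any single library except P14 replicate 1 ended it, with adjusted p between 0.0648 and 0.111. It was also lost with no filter, median-of-ratios scaling, assigned reads, a replicate block and the epithelial covariate (adjusted p 0.0571 to 0.163). Cdc5l (chr17:45702809-45744633, minus strand), the scaffold protein with Myb-like repeats, was at 20.2, 20.3, 24.5 and 25.8 FPKM in the fetal libraries and at 18.5, 15.3, 15.5 and 14.5 at P14. Fetal replicates 3 and 4 were the highest, and P14 replicate 1 the highest of its age, though still below the fetal libraries. The mean fell from 22.7 ± 2.85 to 15.95 ± 1.78 (SD, n = 4 each), with a log2 fold change of −0.48 (SE 0.124, adjusted p = 0.0262). It missed the threshold without E17.5 replicate 3 or 4 or without P14 replicate 2, 3 or 4 (adjusted p 0.0585 to 0.085). The call of Cdc5l was also lost with no filter and with a replicate block, and was kept under 12 of the 19 settings. The remaining core subunits did not pass with 8 libraries. Bcas2 was at 39.4 to 53.1 FPKM in the fetal libraries and 37.1 to 46.1 in the P14 libraries, and Plrg1 at 23.3 to 27.2 and 18.7 to 27.2, its highest P14 value being replicate 1. Plrg1 fell by 0.32 without that library (adjusted p = 0.0124).

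Syf2 (chr4:134658291-134664848, plus strand), a partner of the complex, was the 1 factor that rose with 8 libraries. It was at 33.4, 29.8, 29.6 and 28.8 FPKM in the fetal libraries and at 53.1, 37.9, 40.6 and 41.1 at P14. All P14 libraries lay above all fetal ones, with P14 replicate 1 the highest of them. The mean rose from 30.4 ± 2.04 to 43.2 ± 6.80 (SD, n = 4 each), with a log2 fold change of 0.48 (SE 0.126, adjusted p = 0.0272), and without P14 replicate 1 it rose by 0.38 (adjusted p = 0.00375). The call was lost without E17.5 replicate 2, 3 or 4 or P14 replicate 3 or 4 (adjusted p 0.0558 to 0.0824), on a TPM scale, and with the pan-epithelial level as a covariate (adjusted p = 0.403). It was also lost with no filter and with a replicate block, and was kept under 10 of the 19 settings.

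Several partners of the complex passed without P14 replicate 1 but not in the fit of all 8 libraries on the deposited FPKM. Aqr, the helicase of the intron-binding complex, was at 11.2, 11.1, 12.0 and 12.4 FPKM in the fetal libraries and at 11.7, 7.41, 7.83 and 7.78 at P14. On this deposited scale replicate 1 of P14 sat among the fetal libraries and the other 3 well below them. That place depends on the scaling. Counted reads of Aqr were 1008 in P14 replicate 1, of 17975812 assigned, and 1186 to 1516 in the fetal libraries. Aqr did not pass with 8 libraries (−0.41, adjusted p = 0.0732) and fell by 0.55 without P14 replicate 1 (adjusted p = 0.000508). In Bud31 that library lay above all others on the deposited scale, at 59.4 FPKM. The values were 41.9 to 47.6 at E17.5 and 32.9 to 34.2 in the other P14 libraries. Its counted reads there, 811, lay among the 783 to 922 of the fetal libraries. Bud31 fell by 0.46 without replicate 1 (adjusted p = 0.00129), though Ptcd1 on the opposite strand overlaps it with 40.7% of its read number. Crnkl1, with 14.9 FPKM in P14 replicate 1 against 8.30 to 9.07, fell by 0.31, and Snw1, with 38.1 against 26.1 to 27.3, fell by 0.23 in the same fit (adjusted p = 0.00798 and 0.0267). Rbm22, which contacts U6, differed from these in that P14 replicate 1 did not stand apart: it was at 28.7, 31.1, 29.6 and 30.7 FPKM in the fetal libraries and at 25.1, 25.4, 25.8 and 23.5 at P14. Its ages did not overlap, its value was −0.26 in both fits, and of these it passed in the fit without P14 replicate 1 (adjusted p = 0.0585 and 0.0132). With 8 libraries on the TPM scale, Aqr, Bud31 and Rbm22 did pass (adjusted p = 0.00676, 0.035 and 0.0471). Crnkl1 and Snw1 did not pass there (adjusted p = 0.0789 and 0.0556). Cwc15, the most abundant of the 16, was at 48.9, 49.2, 48.6 and 56.0 FPKM in the fetal libraries and 64.2, 49.5, 42.6 and 43.1 at P14, which overlapped, and did not pass (−0.04 and −0.17). Xab2, Isy1, Ppie, Ppil1, Ctnnbl1 and Bcas2 did not pass in either fit, with values from −0.25 to 0.25. Ppie, a cyclophilin, was lower in P14 replicate 1 (16.3 FPKM) than in the other 3 (20.8 to 24.4), unlike Aqr, Bud31 and Crnkl1.

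The branch site and 3' splice site factors had 1 of 8 members down in both fits (12.5%). Of all tested genes, 15% were down with 8 libraries and 26.9% without P14 replicate 1. U2surp (chr9:95338947-95394049, minus strand), an SR-related protein bound to U2, was at 14.5, 15.6, 16.9 and 18.6 FPKM in the fetal libraries and at 13.8, 10.8, 10.9 and 11.8 at P14. The ages did not overlap, but on this deposited scale P14 replicate 1 came close to the lowest fetal library. Its counted reads were 1501, of 17975812 assigned, against 2101 to 2871 in the fetal libraries. The mean fell from 16.4 ± 1.78 to 11.8 ± 1.41 (SD, n = 4 each), with a log2 fold change of −0.44 (SE 0.118, adjusted p = 0.0299). The call was lost without E17.5 replicate 2, 3 or 4 or P14 replicate 2, 3 or 4 (adjusted p 0.066 to 0.0894) and strengthened without P14 replicate 1 (−0.51, adjusted p = 0.00236). It was also lost with no filter and with a replicate block, and was kept under 11 of the 19 settings. U2af1, the small U2AF subunit that reads the AG of the 3' splice site and the most abundant of the 8, was at 60.8, 60.3, 63.2 and 56.4 FPKM in the fetal libraries and at 54.8, 59.5, 60.4 and 58.0 at P14. These ranges overlapped, and the log2 fold change was −0.05 (SE 0.0879). U2af2, its partner that binds the polypyrimidine tract, was at 26.2 to 30.4 and 25.5 to 28.9 FPKM, and the ratio of U2af2 to U2af1 was 0.471 ± 0.034 at E17.5 and 0.471 ± 0.0437 at P14 (SD, n = 4 each). Sf1, the branch point binder, was at 55.2 to 62.8 FPKM in the fetal libraries and 48.5 to 60.4 at P14, lowest in P14 replicate 1, and did not pass (−0.11 and −0.05). Puf60, Rbm17, Ddx46 and Ddx42 did not pass, with values between −0.19 and 0.09 over both fits.

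The factors that sit with U1 at the 5' splice site had no member called with 8 libraries, beside 24.7% of all tested genes. Without P14 replicate 1 they had 1 down and 1 up (16.7% each), beside 26.9% and 22.6% of all tested genes. Luc7l, one of 3 relatives of yeast LUC7, was at 15.1, 16.6, 17.04 and 18.2 FPKM in the fetal libraries and at 11.1, 16.2, 12.6 and 13.5 at P14. P14 replicate 2 lay within the fetal range and the other 3 P14 libraries below it, and the log2 fold change of −0.31 (SE 0.128) did not pass (adjusted p = 0.109). Luc7l3, the most abundant of the 6, was at 35.3, 35.4, 45.0 and 49.2 FPKM in the fetal libraries and at 31.8, 38.5, 31.9 and 31.1 at P14. Its fetal libraries split into replicates 1 and 2 and replicates 3 and 4, and P14 replicate 2 fell between them (−0.29, adjusted p = 0.17). Luc7l2 and Prpf39 did not pass, at −0.18 and −0.24. Rbm25, a regulator of alternative 5' splice site use, fell by 0.26 without P14 replicate 1 (adjusted p = 0.037). Prpf40b, a homologue of the yeast U1 factor Prp40, was at 10.6 to 12.7 FPKM in the fetal libraries and at 8.63, 14.8, 12.5 and 14.2 at P14. It was lowest of all 8 in P14 replicate 1 and rose by 0.25 without that library (adjusted p = 0.0407), against 0.10 with it and −0.08 with it on the TPM scale.

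Among the second-step factors, Cdc40 (the homologue of yeast Prp17) was at 13.9, 12.7, 14.7 and 16.005 FPKM in the fetal libraries and at 12.6, 9.09, 10.7 and 10.7 at P14. The ages did not overlap, by a small margin in P14 replicate 1 on this deposited scale. Counted reads of Cdc40 were 596 in P14 replicate 1, of 17975812 assigned, and 743 to 1073 in the fetal libraries. It missed the threshold with 8 libraries (−0.38, SE 0.121, adjusted p = 0.0519) and fell by 0.46 without P14 replicate 1 (adjusted p = 0.00524). Prpf18, with the highest mean of the 3 over all 8 libraries, was at 13.3, 14.2, 16.3 and 12.9 FPKM in the fetal libraries and at 15.5, 16.5, 15.9 and 15.9 at P14. Fetal replicate 3 lay among the P14 libraries, and it did not pass (0.16, SE 0.098, adjusted p = 0.253). Slu7, which helps to choose the 3' splice site, was at 12.0, 12.0, 12.0 and 12.4 FPKM in the fetal libraries and at 11.9, 13.0 and 11.1 in P14 replicates 2 to 4, but at 20.9 in P14 replicate 1 (0.17 with that library and −0.01 without it).

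The exon junction complex, which marks where exons were joined, had no member called in either fit. Of all tested genes, 24.7% were called with 8 libraries and 49.5% without P14 replicate 1. Eif4a3, its RNA-clamping helicase, was at 64.9, 62.9, 60.6 and 64.1 FPKM in the fetal libraries and at 61.7, 64.0, 61.9 and 65.3 at P14. The P14 range nearly coincided with the fetal one, with P14 replicate 4 the highest of all 8 and replicate 1 not apart (63.1 ± 1.85 and 63.2 ± 1.71, SD, n = 4 each). Its log2 fold change was 0.00 (SE 0.0827), and −0.19 on the TPM scale, and it was the factor with the highest mean FPKM of its group. Alyref, an export adaptor, had the largest change of the 7 with 8 libraries (Rbm8a, at 0.26, without P14 replicate 1) and was at 39.6, 39.7, 34.9 and 32.9 FPKM in the fetal libraries and at 27.2, 32.4, 30.9 and 31.7 at P14. Its ages did not overlap, yet it did not pass (−0.26, SE 0.107, adjusted p = 0.114), and Anapc11 overlaps it on the opposite strand with 103% of its read number. Magoh and Magohb encode nearly the same protein, a partner of Rbm8a. Magoh was at 50.3 to 57.9 FPKM in the fetal libraries and 41.3 to 53.9 at P14, Magohb at 6.79 to 7.62 and 5.76 to 9.34, and neither passed. The ratio of Magohb to Magoh was 0.131 ± 0.00644 at E17.5 and 0.164 ± 0.0336 at P14 (SD, n = 4 each). In P14 replicate 1 it was 0.1247, just below the lowest fetal ratio of 0.1251, and in P14 replicates 2 to 4 it lay above the fetal range. Reads shared between such copies could be split by the counting, so this ratio is uncertain. Rbm8a, Casc3 and Acin1 had values between −0.14 and 0.26 over both fits. Srrm2 and Srrm1 are SR-related matrix proteins. Srrm2, a large RS-domain scaffold of nuclear speckles, was at 51.3, 52.9, 55.6 and 49.0 FPKM in the fetal libraries and at 47.7, 39.7, 46.5 and 43.3 at P14. The ages did not overlap, it did not pass with 8 libraries (−0.23, adjusted p = 0.117), and it fell by 0.27 without P14 replicate 1 (adjusted p = 0.022). Srrm1 did not pass, with −0.21 and −0.16.

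Of the Bact factors, which act just before the first step, Bud13 and Cwc27 did not pass. Bud13 was at 5.96 to 8.93 FPKM in the fetal libraries and 5.39 to 6.97 at P14 (−0.26 and −0.32), and Cwc27, a cyclophilin-like protein, was the least abundant of all 54, at 1.29 to 1.42 and 1.26 to 1.40 FPKM.

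Cwc22 was unlike every other factor. Its protein brings Eif4a3 to the spliceosome, so that exon junction complexes can be laid down. Cwc22 (chr2:77706312-77776705, minus strand) was at 91.0, 87.5, 4.93 and 4.66 FPKM in fetal replicates 1 to 4, and its P14 values were 4.19, 3.40, 100.3 and 4.40 in the same order. E17.5 replicates 1 and 2 and P14 replicate 3 formed a high set and the other 5 libraries a low set, with nothing between, and each age held both. The lowest of the 3 high values was 17.7 times the highest of the 5 low values. Counted reads were 14880, 12955 and 16015 in the high libraries and 501 to 797 in the low ones, so counting error is small beside this gap. The difference between the ages was within the spread of the libraries (log2 fold change −1.11, SE 1.36, adjusted p = 0.577).

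**Figure D3:**
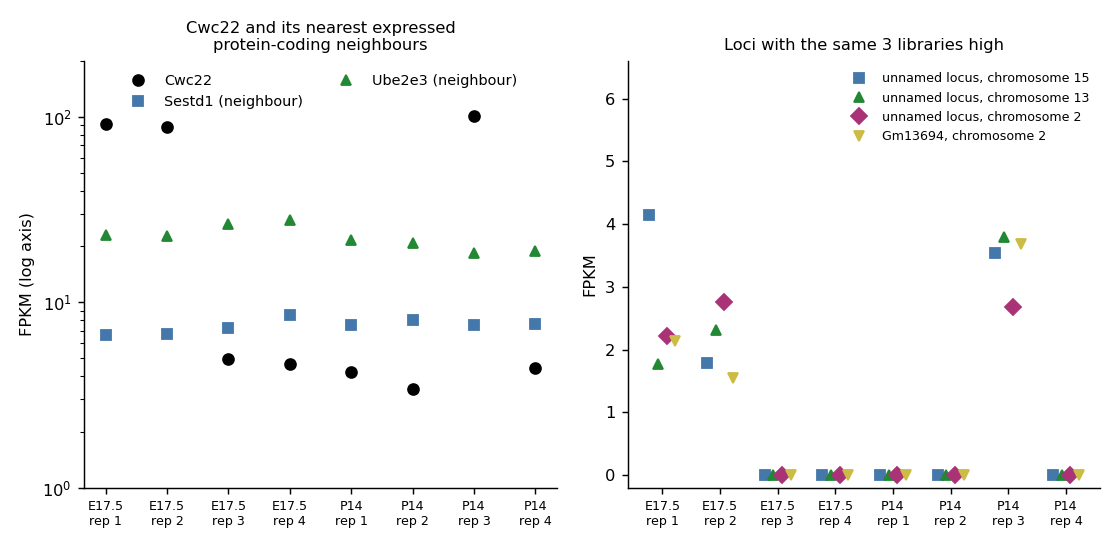
FPKM per library (x axes) of Cwc22 and the nearest expressed protein-coding genes on either side (left, log axis), and of 4 further loci that are above 0 in the same libraries (right, linear axis); points are single libraries and are offset sideways on the right. Cwc22 lies at 87.5 FPKM or more in E17.5 replicates 1 and 2 and P14 replicate 3 and at 4.93 or less in the other 5, while Sestd1 and Ube2e3 show no such split.

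The next expressed protein-coding genes on chromosome 2 did not share the split. Sestd1, 595.2 kb away, and Ube2e3, 921.9 kb away, had ratios of the mean of the 3 high libraries to the mean of the other 5 of 0.892 and 0.924, against 21.5 for Cwc22. After these values were seen, the whole table was searched for loci whose lowest value in the 3 libraries was at least 1 FPKM and at least 2 times the highest of the other 5. It returned 6 loci, Cwc22 among them. An unnamed locus at chr2:77700919-77705410, just beyond the end of Cwc22, had 54, 61 and 64 reads in the 3 libraries and was listed at 0 in the other 5. Gm13694, a locus at chr2:83809189-83812242 whose description in the table names the mouse CWC22 protein, had 125, 82 and 211 reads and was likewise listed at 0 elsewhere. Unnamed loci at chr13:83284369-83285014 and chr15:39577364-39581801 were also listed at 0 in the other 5 libraries, and the remaining locus was a tRNA gene, n-TScga3, with 2 to 7 reads in the 3 libraries. The same search in the opposite direction returned 1 locus, Mir3101, with at most 13 reads in a library. Cwc22 lies in a stretch of mouse chromosome 2 that is known to vary in copy number among mouse stocks. Whether that bears on these libraries was not tested, since the labels give no stock. Reads of copies outside the annotated gene cannot be told apart here from reads of Cwc22 itself.

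On the deposited FPKM scale, P14 replicate 1 was the highest P14 library in 27 of the 54 factors and the lowest in 16, beside 44.5% and 41.1% of all tested genes. Of the 16 Prp19 factors it was highest in 10 and lowest in 1, and of the 7 exon junction factors highest in none and lowest in 5. The ratio of its FPKM to the mean of replicates 2 to 4 was highest for Prpf38a (1.84), Bud31 (1.78), Crnkl1 (1.74), Slu7 (1.74), Dhx16 (1.65) and Aqr (1.53), and lowest, beside Cwc22, for Prpf40b (0.624), Magohb (0.694) and Ppie (0.703). These ratios depend on the scaling. With reads scaled by assigned reads instead, replicate 1 was highest in 8 factors and lowest in 40, beside 3751 and 8426 of the 14044 tested genes, and on TPM in 7 and 42, beside 3408 and 8862. By assigned reads the 54 had a median ratio of 0.797, beside 0.768 over all tested genes (1.06 and 1.02 on FPKM). Prpf38a, Bud31, Crnkl1, Slu7, Dhx16 and Aqr kept ratios above 1 on that scale, at 1.39, 1.34, 1.31, 1.31, 1.24 and 1.15. This is 1 library with no replicate, and the part of its epithelial RNA in these values was not tested.

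**Figure D4:**
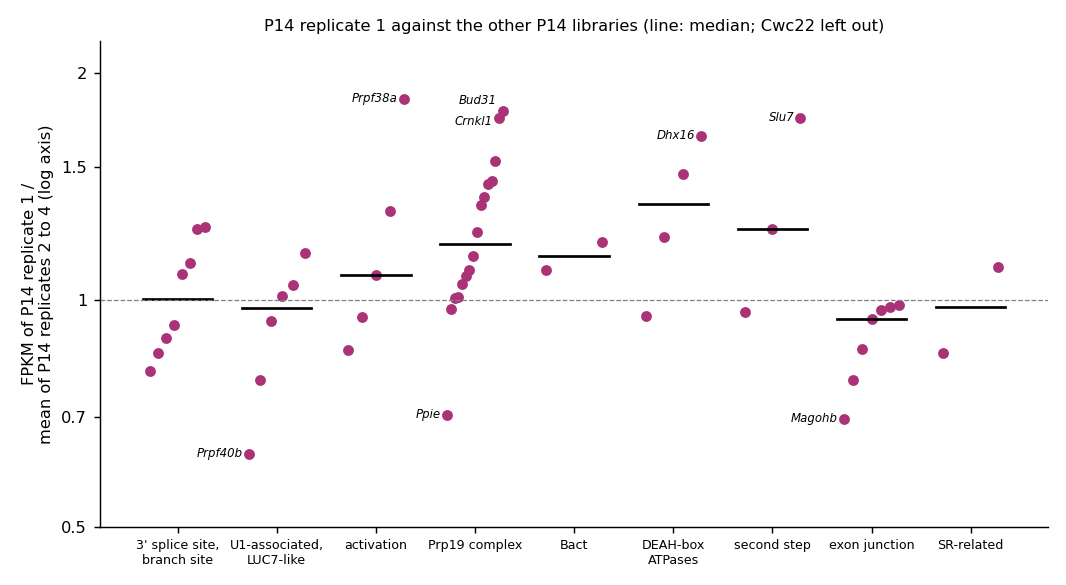
Ratio of the FPKM in P14 replicate 1 to the mean of P14 replicates 2 to 4 (y axis, log scale) for 53 factors by role (x axis), Cwc22 left out; each point is a gene and each line the median of its role. The Prp19 complex and the DEAH-box ATPases have medians of 1.18 and 1.34, and all 7 exon junction factors lie below 1.

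The spread between P14 replicates was narrower without that library. Leaving Cwc22 aside, the coefficient of variation of a factor had a median of 7.89% (1.64% to 18.8%) over the 4 fetal libraries and 10.1% (2.59% to 35.2%) over the 4 P14 libraries, and 4.90% (1.30% to 19.4%) over P14 replicates 2 to 4. The fetal libraries carried an order of their own. Replicates 1 and 2 were both above replicates 3 and 4 in 20 factors and both below them in 18, together 70.4% of the 54, beside 58% of all tested genes. Acin1 (33.6 and 33.4 against 27.6 and 22.8 FPKM) and Ppie were higher in replicates 1 and 2, and Dhx15, Cdc5l, Luc7l2, Luc7l3 and Prpf39 were lower, as were 5 of the 6 U1-associated factors. The replicate numbers carry no stated meaning, and what the fetal libraries share in pairs is not given in the labels.

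Other spliceosome genes are described from lists of their own, beside all tested genes at 15% down and 9.72% up with 8 libraries and 26.9% and 22.6% without P14 replicate 1. Of 39 tested further activation, step and release factors, 4 fell (10.3%) and 1 rose with 8 libraries, and 12 fell (30.8%) and 1 rose without P14 replicate 1. Dhx35, a DEAH-box helicase, rose by 0.31 (adjusted p = 0.0392), and Ppwd1, a cyclophilin, fell by 0.56 (adjusted p = 0.0131). Of 43 tested snRNP proteins, 7 fell (16.3%) and 1 rose with 8 libraries, and 10 fell (23.3%) and 4 rose (9.3%) without P14 replicate 1. Snrpd1 and Sf3b3 fell by 0.70 and 0.62 (adjusted p = 0.00917 and 0.00209), and Lsm4 rose by 0.63 (adjusted p = 0.0239). Of 19 further exon junction, cap and export factors, 3 fell (15.8%) and 2 rose (10.5%) with 8 libraries, and 5 fell (26.3%) and 2 rose (10.5%) without P14 replicate 1. Differences between the lists were not tested. Rnps1, which joins the exon junction complex in the ASAP and PSAP assemblies, fell by 0.84 (adjusted p = 0.0499) with overlapping ages, Thoc2 of the THO complex fell by 0.58 (adjusted p = 0.0194), and Pym1 and Sap18 rose by 0.45 and 0.35 (adjusted p = 0.0222 and 0.0444). The exon junction core itself, Eif4a3, Magoh and Rbm8a, did not pass. Medians of the 3 lists were −0.0983, −0.173 and −0.127, beside −0.129 for the 54 factors.

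For the 6 factors called with 8 libraries, the 150 bases before the annotated start are shown, since these are the genes that moved between the ages. They come from the RefSeq promoter table on GRCm38.p6, a different build from the GRCm39 of the expression table, and are written 5' to 3' on the strand of the gene, with motif letters in capitals. The table gives Prpf19 a second start, whose window (chr19:10898495-10898644) holds none of the motifs and is not printed; CCAAT lies outside it, 168 bases before that start. The windows are, in the order printed, chr5:52190547-52190696, chr13:34875379-34875528, chr17:45433708-45433857, chr9:95511997-95512146, chr19:10895081-10895230 and chr4:134930830-134930979.
Dhx15: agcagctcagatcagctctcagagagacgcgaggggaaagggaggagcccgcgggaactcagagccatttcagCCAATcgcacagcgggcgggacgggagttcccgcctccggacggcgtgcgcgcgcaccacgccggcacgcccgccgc
Prpf4b: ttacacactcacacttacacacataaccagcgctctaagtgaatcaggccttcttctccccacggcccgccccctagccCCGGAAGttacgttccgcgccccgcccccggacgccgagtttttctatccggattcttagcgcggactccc
Cdc5l: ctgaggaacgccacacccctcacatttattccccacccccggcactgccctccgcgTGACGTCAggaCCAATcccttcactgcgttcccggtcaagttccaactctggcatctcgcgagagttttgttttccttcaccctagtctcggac
U2surp: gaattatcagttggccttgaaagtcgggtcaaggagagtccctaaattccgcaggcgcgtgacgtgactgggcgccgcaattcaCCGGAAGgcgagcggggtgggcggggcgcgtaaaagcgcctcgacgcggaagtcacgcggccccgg
Prpf19: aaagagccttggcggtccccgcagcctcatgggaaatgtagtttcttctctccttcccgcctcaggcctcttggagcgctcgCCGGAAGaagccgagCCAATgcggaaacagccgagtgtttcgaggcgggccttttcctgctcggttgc
Syf2: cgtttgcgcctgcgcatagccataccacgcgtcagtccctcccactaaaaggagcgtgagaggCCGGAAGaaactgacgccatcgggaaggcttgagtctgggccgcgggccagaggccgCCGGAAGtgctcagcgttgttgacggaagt
The capitals mark CCGGAAG, which is a core that ETS factors bind, CCAAT, the box bound by NF-Y, and TGACGTCA, the cyclic AMP response element. CCGGAAG starts 71 bases before the start in Prpf4b, 66 in U2surp, 68 in Prpf19 and 87 and 30 in Syf2, so genes that fell and the gene that rose both hold it. CCAAT starts 77 bases before the start in Dhx15, 83 in Cdc5l and 53 in Prpf19, and TGACGTCA 94 bases before it in Cdc5l.

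Over the 250 bases before the start, searched on both strands, 41 of the 54 factors had a window in the table. CCGGAAG was present in 12 of them (29.3%), beside 15.0% of the 10455 tested genes with a window and 7.83% of all 27025 genes with one. CCAAT was present in 20 (48.8%), beside 39.9% of tested genes, and TGACGTCA in 2 (4.88%), beside 2.99%. GCGCATGCG, the NRF1 motif, was present in 2 (4.88%), beside 3.24%, TTTGGCGC or TTTCGCGC, which E2F factors bind, in 3 (7.32%), beside 1.38%, and AAGATGGCG, a YY1 motif, in none, beside 1.36%. Of the 14 factors with a window that fell without P14 replicate 1, 4 held CCGGAAG and 6 held CCAAT. The windows of the factors had a median of 18.5 CpG and 57.6% GC, against 15 and 60.0% in tested genes. These matches are letters in a window and describe no binding.

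Neighbouring genes limit some values, because it is not given whether the counting used strand. Of the 54 factors, 16 overlap another locus, and 8 overlap one on the opposite strand with 10% or more of their own reads. These 8 are Ddx42, Prpf39, Rbm25, Snw1, Bud31, Acin1, Alyref and Srrm2, of which Rbm25, Snw1, Bud31 and Srrm2 were called without P14 replicate 1. None of the 6 factors called with 8 libraries is among them.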

How the data were processed

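RNA of 4 E17.5 and 4 P14 libraries was measured as 1 deposited FPKM value per gene and library, beside the deposited gene length, position and biotype. The submitters' processing notes name DESeq2 1.20.0, featureCounts, HISAT2, fastp, CASAVA and build GRCm39, without the role of each. Neither the step that gave the FPKM nor the strand setting of the counting is stated in the sources used here. From the deposited FPKM, log2(FPKM + 1) was computed. The pseudocount of 1 makes fold changes of low genes smaller. Loci with at least 1 FPKM in 4 or more libraries were fitted with limma 3.58.1, run under R 4.3.3 and statmod 1.5.0, using trend and robust moderation, two-sided, with Benjamini-Hochberg adjustment over all 14044 tested loci and a threshold of 0.05. The fit was repeated without P14 replicate 1. The code was tested on simulated data.

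The authors' read counts could be recovered, since deposited FPKM times gene length came out as whole numbers of a library's unit in 100% of cases (tolerance 1e-06). They served for depth, read numbers of single loci, overlap shares, the scale by assigned reads and 1 alternative fit (voom weights). The 302 loci without a gene name took 0.183% to 0.246% of the reads. PCR copies of a molecule cannot be told apart in these reads.

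Members and lists were chosen with earlier results of these data known. Values in every library are given for factors called with 8 libraries and, for each role, for the factor with the largest absolute fold change and the factor with the highest mean FPKM; factors called only without P14 replicate 1 are named with their fold changes, and from each other list up to 2 called genes in each direction with the largest change, of which 1 is not reported here. Dhx16, Prpf38a, Prpf38b, Slu7, Bcas2, Magoh, Magohb, Sf1, U2af2, Bud13, Cwc27, Ppie and Acin1 are given ranges beyond that rule, chosen after their values were seen. Same-numbered libraries of the 2 ages did not deviate together (correlations across genes of −0.033, 0.00947, −0.0641 and −0.0492), so the numbers were not used as pairs. Alternatives covered the pseudocount, the filter, scaling, moderation, a replicate block, the mean of the pan-epithelial markers as a covariate, and leaving out each library. Of the listed symbols of other spliceosome genes, Yju2b was not found by name. Promoters come from a RefSeq table on GRCm38.p6, matched by symbol.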

Additional observations from a re-analysis of the deposited data

Results flagged for a closer look

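In each factor, the highest or lowest of the 4 libraries of an age was compared with the nearest of the other 3, and a library was singled out where that gap took up most of the range of the 4 (Dixon's test at 95%). Over 108 groups of 4, 15 were singled out, and chance singles out about 1 in 20 independent groups. These groups share the same libraries, and the rate over all tested genes was not computed. P14 replicate 1 accounted for 9 of the 15, each time as the highest library. On the deposited FPKM it was the highest P14 library in 44.5% of all tested genes and the lowest in 41.1%. With reads scaled by assigned reads it was highest in 8 of the 54 factors. It was at 29.0 FPKM in Ddx42 (22.7 to 23.6 in the other P14 libraries), 42.4 in Prpf38a (21.1 to 24.3), 29.2 in Prpf38b (21.4 to 22.7), 14.9 in Crnkl1 (8.30 to 9.07) and 11.7 in Aqr (7.41 to 7.83). It was at 38.1 FPKM in Snw1 (26.1 to 27.3), 59.4 in Bud31 (32.9 to 34.2), 20.9 in Dhx16 (12.5 to 12.9) and 12.5 in Dhx8 (8.18 to 8.72).

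The other P14 libraries were singled out in 3 factors. Luc7l3 was high in P14 replicate 2, at 38.5 FPKM against 31.1 to 31.9. Ppil1, a cyclophilin of the active spliceosome, was low in P14 replicate 3, at 18.2 FPKM against 25.7 to 26.3. Cwc22 was high in P14 replicate 3, at 100.3 FPKM against 3.40 to 4.40, and its fetal libraries, split evenly between a high and a low pair, could not be singled out by this test. At E17.5, Cwc15 was high in replicate 4 (56.0 FPKM against 48.6 to 49.2), Slu7 was high in replicate 4 (12.4 against 12.0) and Bud31 was low in replicate 1 (41.9 against 47.5 to 47.6). The causes of these single-library values were not tested.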

How the results depend on the processing

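The settings without P14 replicate 1 combined with a further choice were chosen after the data were seen. Over 27 named factors and 19 settings, 512 values were computed: 404 kept their direction and side of the threshold, 38 in 5 genes lost the call, 45 in 13 genes gained it and 25 in 8 genes changed sign. Dhx15 kept its call throughout. With 8 libraries (5 down, 1 up, median −0.129), the factors counted 2 down and 0 up with no filter on low values, 12 down and 0 up on TPM (median −0.324), 11 down after quantile normalization (median −0.217), and a median of −0.236 with reads scaled by assigned reads. Of 14044 tested genes, 2678 were down on TPM and 2527 after quantile normalization, against 2108 in the main fit. With no filter 1571 of 31574 were down. The medians of all tested genes were −0.181 on TPM, −0.0568 after quantile normalization and −0.0994 with assigned reads. With the pan-epithelial level as a covariate, which the ages do not share and which rests on extrapolation, the factors counted 10 down and 2 up (median −0.188). Of all tested genes, 2610 were then down and 2193 up (median −0.11). The replicate block left 1 factor down and 0 up, beside 1049 down and 695 up of all tested genes. The replicate block without replicate 1 of both ages gave 14 down and 2 up, beside 3197 and 2892. The replicate numbers pair nothing the labels state. Leaving out each library gave 1 to 16 factors down and 0 to 2 up, beside 1118 to 3782 and 617 to 3176 of all tested genes. Of all called genes, 39.3% were higher at P14, but 25.1% on TPM and 29.7% with assigned reads.

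Without P14 replicate 1 (16 down, 2 up, median −0.175), there were 14 down and 1 up with no filter and 23 down and 1 up on TPM (median −0.249). The epithelial covariate, which separates the ages in these libraries, left 1 down and 0 up (median −0.109). Leaving out a further library gave 11 to 17 down and 1 to 3 up. How many of all tested genes were called in these further settings was not counted. Some log2 fold changes changed sign. With the epithelial covariate and all 8 libraries they became 0.0267 in U2af1, 0.0206 in Luc7l (−0.31 in the main fit) and 0.038 in Ddx23. On TPM they were −0.0831 in Prpf40b and −0.0188 in Prpf18. With median-of-ratios scaling they were 0.00692 in Ddx23 and 0.0224 in Prpf38a. Ddx23 was at 0.0276 with the block without replicate 1. Eif4a3, at 0.00 in the main fit, depended on the scaling. It was at −0.19 on TPM, −0.20 after quantile normalization and −0.092 with assigned reads. Without 1 library at a time, Ddx23 ranged from −0.073 to 0.00937, Prpf38a from −0.22 to 0.10, Cwc15 from −0.17 to 0.0272 and Eif4a3 from −0.0168 to 0.0154. The cause was not tested. With a filter of 5 FPKM, Cwc22 and Cwc27 gave no value and 52 factors were fitted. With 4 libraries an age, a change smaller than the library spread was not detectable.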
